A study of Arabidopsis thaliana with 12 samples.

Results

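The genes described here are the protein-coding genes of the Arabidopsis thaliana plastid genome, the small chromosome that chloroplasts carry. They were taken as every probe set of the ATH1 array that the platform annotation assigns to a single gene lying on the plastid genome in RefSeq, which gave 69 genes of 13286 named on the array and of 22746 probe sets tested. By product, 15 are counted with photosystem II, the assembly factor psbN among them. Subunits of photosystem I are encoded by 5 and its assembly factors by 2, with 6 for the cytochrome b6f complex and 6 for the ATP synthase. A further 10 encode subunits of the NADH dehydrogenase-like (NDH) complex, 1 the large subunit of Rubisco, 15 ribosomal proteins, 4 the plastid RNA polymerase and 5 other proteins. Another 8 probe sets, of rps12, rpl2, rpl23, ycf2, ndhB, rps7 and ycf1, match genes with 2 entries on the genome and were left out.

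Plastid genes stand mostly in multi-gene transcription units, which are copied into long RNAs and then cut into shorter ones. They are read by the plastid-encoded RNA polymerase, whose subunits are the products of rpoA, rpoB, rpoC1 and rpoC2, and by phage-type polymerases encoded in the nucleus. Transcripts of the polymerase and ribosome genes depend more on the nuclear enzymes and those of the photosystems more on the plastid enzyme. In leaves the plastid gene products form the cores of the photosynthetic complexes, and nuclear genes supply the remaining subunits.

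The study asked how the rdm4 mutant and the wild type respond to chilling. The RDM4 protein binds RNA polymerase II and takes part in silencing DNA by methylation. RNA came from leaves of seedlings aged 2 weeks, raised in 16 h days at 23 °C with nights at 18 °C, and moved to 4 °C. The 6 groups of 2 arrays were the rdm4 mutant and the wild type (WT), each after 0, 3 and 48 h of chilling. Each RNA pooled at least 30 seedlings of a plate, and the replicates came from different growth chambers. The labels conflict on several points. Titles give C24 as the wild-type accession where other fields give Col, the genotype field of the rdm4 arrays names an overexpression construct, 35S::RDM4, and the descriptions of the replicate 2 arrays name treatments other than those in their titles. Titles and source names agree on genotype, time and replicate, and these set the groups. Plants were sampled unchilled at 0 h only, so chilling cannot be told apart from age, or from time of day if that differed.

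Arrays did not separate by genotype in the same way at every time. The log2 signal of the 25S ribosomal RNA control was 11.93 and 11.72 in rdm4 and 9.89 and 10.31 in WT at 0 h. It was 9.75 and 9.47 in rdm4 and 11.89 and 12.08 in WT at 3 h, then 11.44 and 11.04 in rdm4 and 10.19 and 9.83 in WT at 48 h. The order of the genotypes was thus opposite at 3 h, so the genotypes below mean the arrays labelled rdm4 and WT, and averages over both, which do not depend on which 3 h arrays carry which label, are given first. Mean levels of the 5 root marker genes named on the array, of 8 listed, were 7.10 and 7.09 in rdm4 and 5.86 and 5.84 in WT at 0 h. They were 7.16 and 7.15 in rdm4 and 8.05 and 8.01 in WT at 3 h, and 7.08 and 7.16 in rdm4 and 7.23 and 7.23 in WT at 48 h. The 3 leaf markers named, of 9 listed, averaged 12.63 to 12.93 at 48 h and 13.31 to 13.44 at 0 h. The files hold no detection calls, so no marker can be called absent. In bulk leaf RNA, fewer cells of a type and less RNA per cell cannot be told apart.

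The plastid genes differed between replicates far more than other genes did. The difference between the 2 replicates of a group, averaged over the 6 groups without its sign, had a median of 0.50 on the log2 scale over the 69 plastid genes. Its median was 0.10 over all probe sets. It reached 0.5 in 35 of the 69 plastid genes, against 45 of the 22746 probe sets in all, these 35 included, and in 1 of 15 mitochondrial genes. Of the 10 probe sets beyond the 35, 4 were among the 2-entry plastid probe sets.

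These 35 widely spread genes moved together. All 35 were higher in replicate 1 than in replicate 2 in rdm4 at 0, 3 and 48 h and in WT at 48 h, and 32 of them in WT at 3 h, while in WT at 0 h all 35 were higher in replicate 2. Their median level was 9.28 and 7.67 in the 2 rdm4 arrays and 8.23 and 9.47 in the 2 WT arrays at 0 h. The replicates lay closer at 3 h, at 8.88 and 8.54 in rdm4 and 9.00 and 8.68 in WT. At 48 h the median was 8.81 and 7.51 in rdm4 and 9.15 and 8.36 in WT. At 0 h over 1 log2 unit thus separated the arrays of each group.

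**Figure D1:**
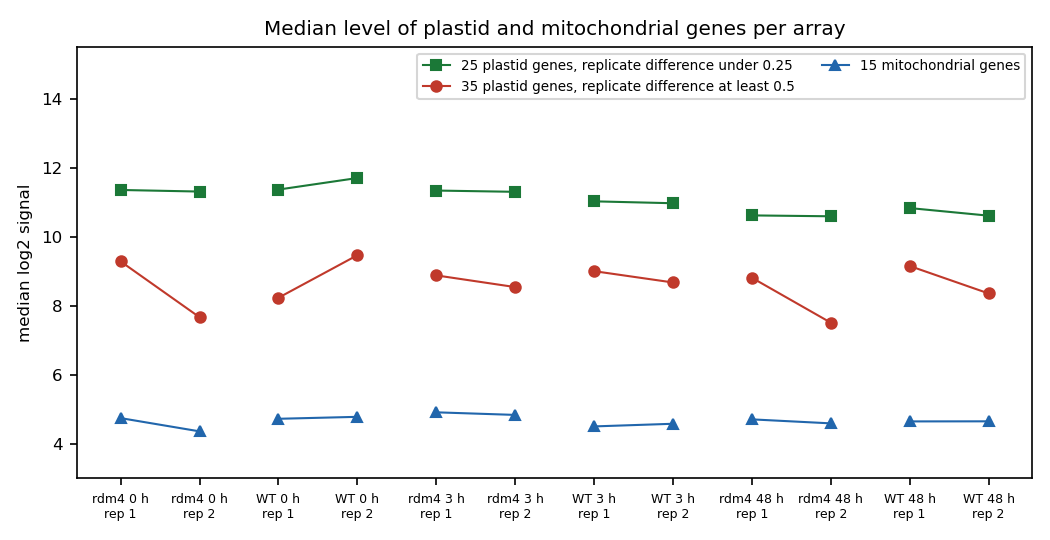
Median log2 signal (vertical axis) in each of the 12 arrays (horizontal axis) of the 35 plastid genes with a mean replicate difference of at least 0.5 (circles), the 25 with one under 0.25 (squares) and 15 mitochondrial genes (triangles); lines join the replicates of a group. The circles differ between replicates by up to 1.62 (rdm4 at 0 h), while squares and triangles differ by at most 0.38.

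A second set of 25 plastid genes was steady, with a mean replicate difference under 0.25. It held 8 of the 15 photosystem II genes, 5 of the 10 NDH genes and 6 of the 15 ribosomal genes. The ATP synthase genes and rbcL were all outside it. Of 14 transcription units, 7 had all their measured genes in 1 band of spread, such as the psbE unit among the steady genes and the rpoB and atpI units among the widely spread, and 7 were divided. Within the petL unit, psaJ, rpl33 and rps18 were steady and petL and petG spread widely, and within the ndhC unit, ndhC was steady and ndhK and ndhJ spread widely. Values just either side of the 0.5 boundary were 0.503 for psbZ and 0.491 for rps19.

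After 48 h of chilling, transcripts of the plastid genes were lower on balance. In the mean of both genotypes, 30 of the 69 genes fell and 3 rose, where a call means an adjusted p under 0.05. Among all probe sets 30.3% were called lower and 27.4% higher. With no array left out, the share of members that fell was thus above this background and the share that rose far below it. With single arrays left out, the fewest members were called without replicate 1 of rdm4 at 0 h, so the excess of falls may rest on that array. The median log2 difference was -0.38 over the 69 genes and -0.01 over all probe sets, and 63 of the 69 lay below 0. These 63 are not separate pieces of evidence, since the 35 widely spread genes moved together from array to array. The median within rdm4 rested on replicate 1 at 0 h, as given below for that genotype. Whether a gene was called went with its replicate spread, which follows in part from the test, since its SE is estimated from that spread. The counts by spread are thus no result about the genes, and no share of equally steady probe sets is given here. Of the 25 steady genes 20 fell, with a median difference of -0.39 over the 25. Of the 35 widely spread genes 7 fell and 2 rose, with a median of -0.41.

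Of those 33 calls, 10 were lost when a single array was left out. Those of psbA, psbB, psbN, atpA, atpH, petG, clpP, rps3 and rpl32 were each lost without replicate 2 of rdm4 or of WT at 48 h, replicate 1 of rdm4 at 0 h or replicate 2 of WT at 0 h. Those of psbA, atpA and atpH were also lost without single 3 h arrays, which enter only through the shared estimate of the spread, and that of clpP also without replicate 1 of rdm4 at 48 h. The ndhH call was lost without replicate 2 of WT at 0 h, at -0.36 and an adjusted p of 0.055, and without replicate 1 of rdm4 at 0 h ndhH stood at -0.25 in place of -0.43. With no array left out, psbA stood at -0.31, psbB at -0.72, psbN at -1.22, atpA at -0.71, atpH at -0.82, petG at -0.67, clpP at -0.25, rps3 at -0.26 and rpl32 at -0.31. The value closest to 0 with 1 array left out was -0.20 for psbA, -0.48 for psbB, -0.78 for psbN, -0.40 for atpA, -0.47 for atpH, -0.42 for petG, -0.13 for clpP, -0.17 for rps3 and -0.23 for rpl32.

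**Figure D2:**
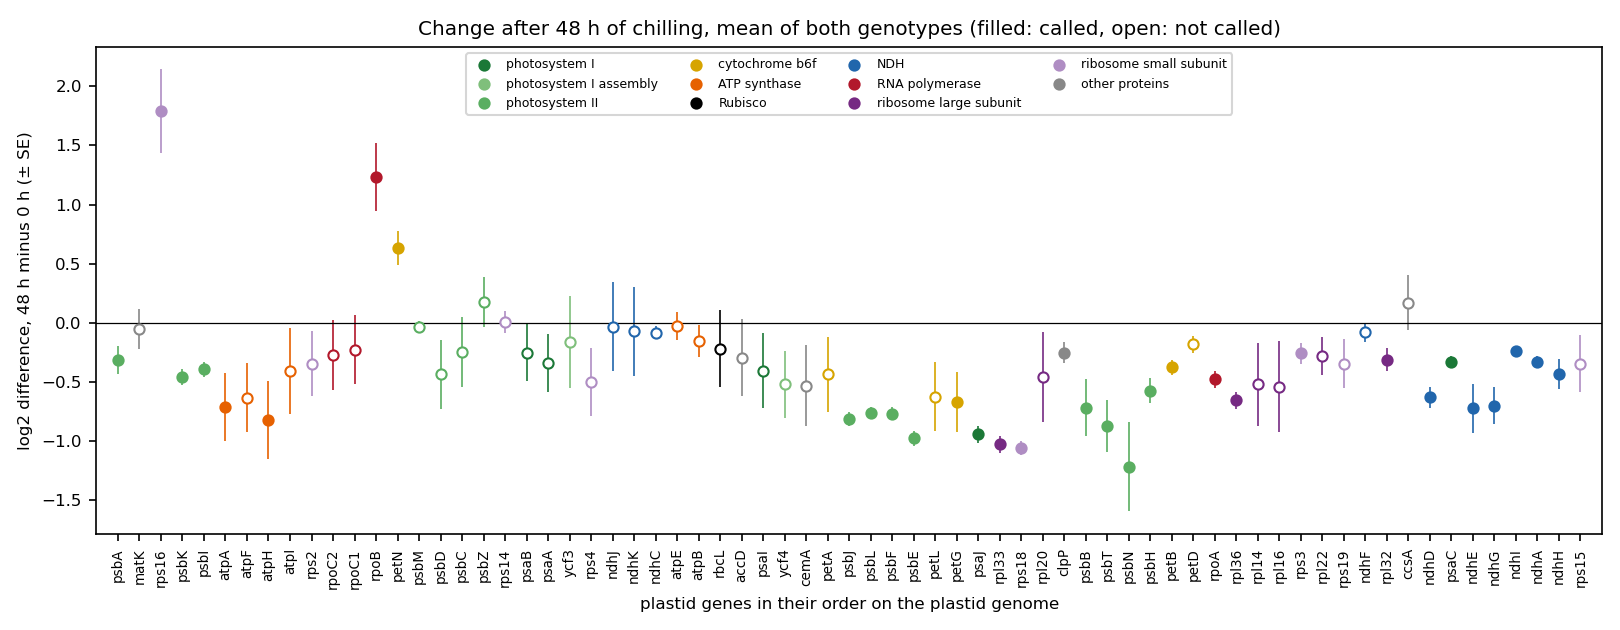
Log2 difference of 48 h minus 0 h, mean of both genotypes with its SE (vertical axis), of the 69 plastid genes in their order on the plastid genome (horizontal axis), coloured by the product's complex; filled points were called. Runs of neighbours lie together, such as psbJ to psbE near -0.8 and ndhD to ndhH below 0, while rps16 at 1.79, rpoB at 1.23 and petN at 0.63 stand above all others.

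Photosystem II, the complex that splits water, had 11 of its 15 plastid genes lower at 48 h and none higher. Of all probe sets 30.3% were called lower and 27.4% higher. Steady genes are called more readily, and 8 of the 15 were steady, so the counts are not compared between complexes. The 4 genes of the psbE unit were all among the 11 that fell. They encode small membrane subunits, and psbE and psbF together form cytochrome b559. psbE had log2 levels of 11.20 and 11.03 in rdm4 and 11.29 and 11.38 in WT at 0 h. It had 11.10 and 11.18 in rdm4 and 10.87 and 10.87 in WT at 3 h, and 10.28 and 10.38 in rdm4 and 10.29 and 10.04 in WT at 48 h. All 4 arrays at 48 h were below all 4 at 0 h. The difference was -0.98 ± 0.06 (SE; 1.97-fold; adjusted p = 2.83e-08), and psbJ, psbF and psbL fell by 0.82 ± 0.06, 0.77 ± 0.05 and 0.76 ± 0.05.

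Steady small subunits elsewhere on the genome fell less. psbK and psbI, neighbours in 1 unit, fell by 0.46 ± 0.07 and 0.39 ± 0.06, and psbM, another small subunit, stood at -0.03 ± 0.05 (adjusted p = 0.625). The reaction centre and inner antenna proteins gave less certain values. psbA, which encodes the D1 protein that is damaged and replaced in the light, stood at -0.31 ± 0.12 (adjusted p = 0.0384). psbD, which encodes its partner D2, was at -0.43 ± 0.29 and psbC, for an inner antenna protein, at -0.25 ± 0.30, and neither was called. psbB, for the other inner antenna protein, was at -0.72 ± 0.24 (adjusted p = 0.02). psbZ, for a small subunit, was at 0.17 ± 0.21 and not called.

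In the psbB unit, which also holds psbT, psbH and 2 cytochrome b6f genes, 4 of 5 genes fell. psbT fell by 0.87 ± 0.22 and psbH by 0.57 ± 0.11, both small subunits. psbN, an assembly factor read from the opposite strand between psbT and psbH, had the lowest value of the 69, at -1.22 ± 0.38 (adjusted p = 0.0141), and a mean replicate difference of 0.896.

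Photosystem I, the second light-driven complex, had 2 of 5 genes lower, against 30.3% of all probe sets. psaJ encodes a small membrane subunit. Its levels were 10.64 and 10.76 in rdm4 and 11.18 and 11.27 in WT at 0 h, and 10.54 and 10.72 in rdm4 and 10.14 and 10.17 in WT at 3 h. They were 9.77 and 10.12 in rdm4 and 10.11 and 10.07 in WT at 48 h. The 48 h arrays all lay below the 0 h arrays, with a difference of -0.94 ± 0.07 (adjusted p = 1.56e-07). psaC, for the subunit that holds the terminal iron-sulfur clusters, fell by 0.33 ± 0.05 (adjusted p = 5.57e-05), and its 4 arrays at 48 h, at 5.23 or less, also lay below those at 0 h, at 5.34 to 5.55. psaA and psaB, which encode the reaction centre pair, were not called, at -0.34 ± 0.25 and -0.25 ± 0.24. Neither were psaI, a small subunit, at -0.41 ± 0.32, or the assembly factors ycf3 and ycf4, at -0.16 ± 0.39 and -0.52 ± 0.28.

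The complexes between and after the photosystems gave mixed calls. Cytochrome b6f, which passes electrons between the photosystems, had 2 of 6 genes lower and 1 higher, against 30.3% and 27.4% of all probe sets. petB, for cytochrome b6, fell by 0.38 ± 0.06 (adjusted p = 0.000145), and petG, for a small subunit, stood at -0.67 ± 0.25 (adjusted p = 0.0385). petA, for cytochrome f, was at -0.43 ± 0.32 and not called, nor were petL, at -0.62 ± 0.29, and petD, which lay among the dimmest 30% of probe sets. petN rose, and is described with the other risers. Of the 6 ATP synthase genes 2 were called lower, against 30.3% of all probe sets. These were atpA, for the alpha subunit, at -0.71 ± 0.29 (adjusted p = 0.0493), and atpH, for the membrane ring subunit, at -0.82 ± 0.33 (adjusted p = 0.0488). atpB and atpE, for the beta and epsilon subunits, were not called, at -0.15 ± 0.13 and -0.03 ± 0.12, and neither were atpF and atpI. rbcL, for the large subunit of the carbon-fixing enzyme Rubisco, was at -0.22 ± 0.33 (adjusted p = 0.606).

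The NDH complex carries electrons back to the plastoquinone pool around photosystem I. Of its 10 genes 6 fell in the mean of both genotypes, against 30.3% of all probe sets. All 6 belong to the ndhH unit, in which psaC also stands. ndhD fell by 0.63 ± 0.09 (adjusted p = 3.12e-05), ndhG by 0.70 ± 0.16, ndhE by 0.72 ± 0.21, ndhA by 0.33 ± 0.05, ndhI by 0.24 ± 0.05 and ndhH by 0.43 ± 0.13. With rps15, at -0.35 ± 0.24 and not called, 7 of the 8 genes measured in that unit were lower in this mean. By genotype, 7 of the 8 were called lower in WT, with a median of -0.57 over the 8. In rdm4 only 1, ndhA, was called lower, and the median was -0.20. Of all probe sets 25.8% were called lower in WT and 27.8% in rdm4. A call in WT alone is not a difference between the genotypes. The direct test of that difference, given below, was called in this unit only for ndhD, ndhG and psaC. Of these, only the ndhD call held with each array left out. The 3 genes of the ndhC unit were not called. ndhC, which was steady, was at -0.08 ± 0.05, and ndhK and ndhJ, which spread widely, at -0.07 ± 0.38 and -0.03 ± 0.38. ndhF, the remaining gene, was at the 13.8th percentile of all probe sets by mean level, the dimmest of the 69, and was not called.

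Of the 15 ribosomal protein genes 5 fell and 1 rose, against 30.3% and 27.4% of all probe sets. The ribosomal genes with the most negative values were rps18 and rpl33, which stand behind psaJ in the petL unit. rpl33, for a protein of the large subunit, had levels of 11.36 and 11.47 in rdm4 and 11.77 and 11.86 in WT at 0 h, and 11.34 and 11.30 in rdm4 and 11.00 and 10.97 in WT at 3 h. At 48 h it had 10.31 and 10.59 in rdm4 and 10.83 and 10.61 in WT, each below every 0 h array. It fell by 1.03 ± 0.07 (2.04-fold; adjusted p = 3.74e-08), and rps18, for a protein of the small subunit, by 1.06 ± 0.06 (2.08-fold; adjusted p = 6.05e-09). rpl36, in the long unit that runs to rpoA, fell by 0.66 ± 0.07, and rpl32 and rps3 were at -0.31 ± 0.10 and -0.26 ± 0.09. The other 9 were not called, from -0.54 (rpl16) to 0.01 (rps14, which was among the dimmest 30%).

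The polymerase genes did not move as a group. rpoA, for the alpha subunit, stands at the end of a ribosomal unit and fell by 0.48 ± 0.07 (adjusted p = 5.94e-05). rpoB, for the beta subunit, rose. Its levels were 7.24 and 5.91 in rdm4 and 6.28 and 7.05 in WT at 0 h, 7.41 and 6.97 in rdm4 and 7.14 and 6.94 in WT at 3 h, and 8.19 and 7.32 in rdm4 and 8.32 and 7.58 in WT at 48 h. Every 48 h array was above every 0 h array, though only by 0.07 between the nearest pair. The difference was 1.23 ± 0.29 (2.35-fold; adjusted p = 0.0025), and 0.90 to 1.57 with 1 array left out in turn.

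rpoC1 and rpoC2, which follow rpoB in its unit and encode the beta' and beta'' subunits, were not called, at -0.23 ± 0.29 and -0.27 ± 0.30. All 3 spread widely between replicates, and much of that spread is common to them. Within an array, rpoB minus rpoC1 was -0.84 and -0.75 in rdm4 and -0.59 and -0.78 in WT at 48 h, against -1.88 and -2.18 in rdm4 and -2.20 and -2.53 in WT at 0 h. rpoC1 minus rpoC2 was 1.18 to 1.32 at 48 h and 1.01 to 1.30 at 0 h. rpoB thus moved relative to its neighbours by more than the arrays differed, and the neighbours kept nearly the same distance. These within-array differences were chosen after the values were seen and were not tested.

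rps16 and petN were the other risers. rps16 encodes a small subunit protein, and had 7.19 and 5.94 in rdm4 and 6.01 and 7.37 in WT at 0 h. At 3 h it had 8.01 and 7.85 in rdm4 and 8.56 and 8.60 in WT, and at 48 h 8.63 and 7.35 in rdm4 and 9.31 and 8.38 in WT. All 3 h arrays were above all 0 h arrays, while at 48 h the lowest array of rdm4 was just below the highest of WT at 0 h. The difference at 48 h was 1.79 ± 0.35 (3.46-fold; adjusted p = 0.000697), the most positive of the 69.

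petN encodes a small cytochrome b6f subunit and lies next to rpoB on the genome. It had 6.98 and 6.55 in rdm4 and 6.73 and 7.08 in WT at 0 h, and 6.82 and 6.94 in rdm4 and 7.33 and 7.06 in WT at 3 h. At 48 h it had 7.91 and 7.23 in rdm4 and 7.50 and 7.23 in WT, each above every 0 h array. The difference was 0.63 ± 0.14 (adjusted p = 0.00208). Set against the median of the other 68 plastid genes in the same array, rps16 stood 2.30 higher at 48 h than at 0 h, rpoB 1.74 and petN 1.14, a measure that also rises for a gene that stays level, since that median was itself lower at 48 h.

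**Figure D3:**
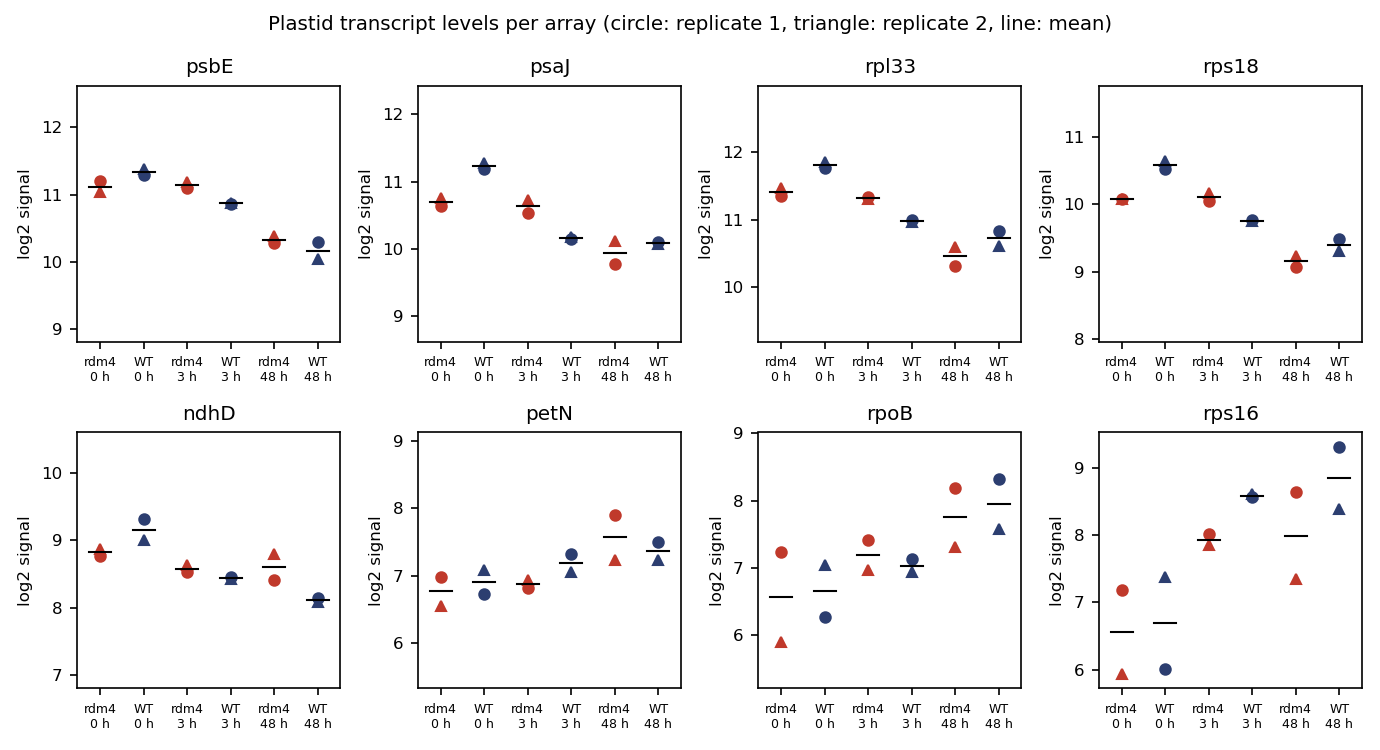
Log2 signal (vertical axes, each spanning 3.8 units) of 8 plastid genes in the 2 arrays of each group (horizontal axes; red, rdm4; blue, WT; line, group mean). psbE, psaJ, rpl33 and rps18 are lowest at 48 h with little spread, ndhD is lowest in WT at 48 h, and petN, rpoB and rps16 are higher at 48 h, rpoB and rps16 with replicates more than 1 log2 unit apart in some groups.

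Without regard to the fit, 15 of the 69 genes had all 4 arrays at 48 h below all 4 at 0 h, and 2, rpoB and petN, had them all above. Among all probe sets 21.5% lay all below and 18.5% all above, so the share of members all below was near the background. The 5 remaining proteins gave 1 call. clpP, for the catalytic subunit of the Clp protease, was at -0.25 ± 0.09 (adjusted p = 0.025). accD, for a subunit of acetyl-CoA carboxylase, was at -0.30 ± 0.33, and matK, cemA and ccsA were not called either.

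**Figure D4:**
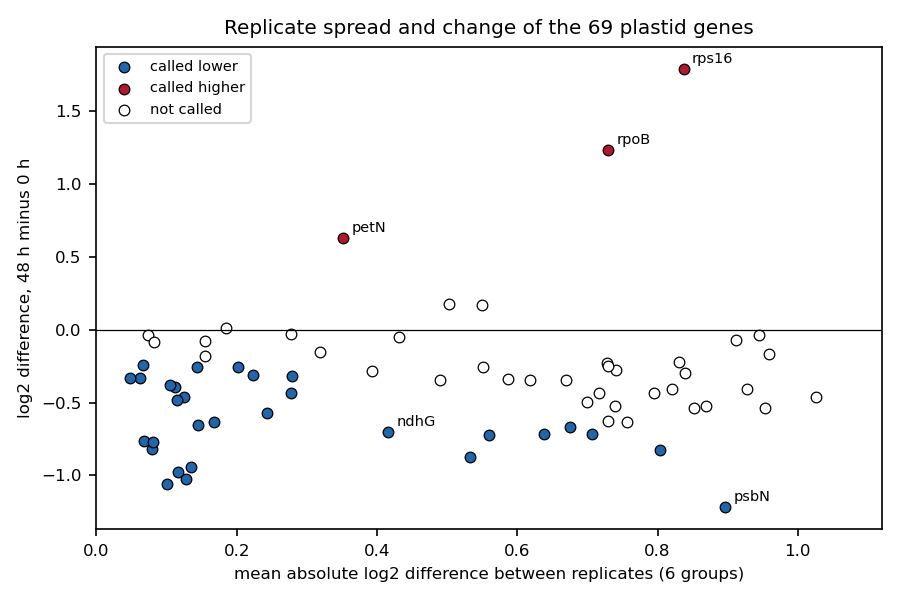
Log2 difference of 48 h minus 0 h, mean of both genotypes (vertical axis), against the mean absolute replicate difference (horizontal axis), 1 point for each of the 69 plastid genes. Genes with a small replicate difference were mostly called lower (blue), genes with a large one mostly not called (white) at similar differences, and the 3 called higher (red) have replicate differences above 0.3.

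Within a single genotype the share of plastid genes that fell at 48 h was above that of all probe sets in WT, at 33.3%. In rdm4 it was slightly under it, at 24.6%. In rdm4, 17 of the 69 genes fell and 3 rose, against 27.8% and 22.8% of all probe sets, with a median of -0.34. In WT, 23 fell and 2 rose, against 25.8% and 24.6%, with a median of -0.42. Without replicate 1 of rdm4 at 0 h the rdm4 count dropped to 10 lower and 3 higher, with a median of 0.01. The medians of both genotypes may rest on other single arrays too. Over the 35 widely spread genes the WT medians were 8.23 and 9.47 at 0 h and 9.15 and 8.36 at 48 h. Replicate 1 of WT at 0 h thus lay below both WT arrays at 48 h. In rdm4 they were 9.28 and 7.67 at 0 h and 8.81 and 7.51 at 48 h. psbE fell by 0.79 ± 0.09 in rdm4 and by 1.17 ± 0.09 in WT, and rpl33 by 0.96 ± 0.10 in rdm4 and by 1.09 ± 0.10 in WT. rpoB was at 1.18 ± 0.41 in rdm4 and 1.28 ± 0.41 in WT, and called in both, but the calls rested on single arrays. That in rdm4 was lost without replicate 1 at 48 h (0.74) or replicate 2 at 0 h (0.51), and without replicate 1 at 0 h the difference was 1.85. That in WT was lost without replicate 1 at 48 h (0.92) or at 0 h (0.90). rps16 was at 1.43 ± 0.50 in rdm4, where the call was lost without replicate 1 at 48 h (0.79) or replicate 2 at 0 h (0.80), and rose by 2.15 ± 0.50 in WT.

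At 3 h few plastid genes were called. In the mean of both genotypes 10 of the 69 fell and 1 rose, below the 23.5% and 19% of all probe sets, and the median was -0.06. Calls went with replicate spread here too. The 10 that fell were all among the 25 steady genes, and only 1 of the 35 widely spread genes was called. The low count thus does not show that the uncalled genes stayed level. psaJ fell by 0.57 ± 0.07 (adjusted p = 4.28e-05), rpl33 by 0.46 ± 0.07, rps18 by 0.40 ± 0.06, ndhD by 0.48 ± 0.09, psaC by 0.25 ± 0.05 and psbL by 0.24 ± 0.05. The riser was rps16, at 1.63 ± 0.35 (adjusted p = 0.00235). rpoB was at 0.49 ± 0.29 and petN at 0.20 ± 0.14, neither called. psbE, psbF, psbJ and psbH were called lower, at -0.22, -0.18, -0.16 and -0.31, and each of these calls was lost without replicate 1 of rdm4 at 0 h, where they stood at -0.18, -0.14, -0.18 and -0.21. The psbE call was also lost without replicate 1 of rdm4 at 3 h (-0.20) or replicate 2 of WT at 0 h (-0.20), and that of psbF without replicate 1 of WT at 3 h (-0.15) or at 0 h (-0.16). That of psbH was also lost without either rdm4 array or replicate 2 of WT at 3 h, or replicate 2 of WT at 0 h, and that of psbJ without any array but the rdm4 ones at 48 h.

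Nearly all falls called at 3 h within a genotype were in the arrays labelled WT. In rdm4 at 3 h 1 gene fell, psaC by 0.36 ± 0.07, against 22.9% of all probe sets, and 2 were called higher, rps16 and ndhC, against 17.1%. The rdm4 count dropped to psaC alone without either of its 3 h arrays. In WT 14 fell and 1 rose, against 23.7% and 23.1%. With the labels exchanged, 5 fell and 1 rose in rdm4 and 7 fell in WT. psaJ fell by 1.07 ± 0.10 in WT and was at -0.07 ± 0.10 in rdm4. The direct test of the difference between the 3 h responses, rdm4 minus WT, was positive for all 11 genes called, against 20.8% of all probe sets called higher and 22.4% called lower. The most positive were psaJ at 1.00 ± 0.15 (adjusted p = 0.00014), psbA at 0.95 ± 0.24 and rps18 at 0.85 ± 0.12, followed by rpl33 at 0.74 ± 0.14. These rest on the labels of the 3 h arrays. With the genotype labels at 3 h exchanged, psaJ stood at 0.05, psbA at 0.39, rps18 at 0.15 and rpl33 at 0.06, none of the 11 was called, and psaC was, at 0.50 ± 0.10. Both responses are taken against arrays at 0 h, where the genotypes differed too.

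At 0 h, 6 of the 69 genes were lower in rdm4 than in WT and none was higher, against 13.7% and 16.1% of all probe sets. psaJ was lower in rdm4 by a difference of -0.53 ± 0.10 (adjusted p = 0.00231) and rps18 by -0.50 ± 0.08 (adjusted p = 0.000724). The other 4 were psbA, rpl33, psbL and psbF, at -0.67, -0.40, -0.25 and -0.23. The count dropped to 3 without replicate 2 of rdm4 or replicate 2 of WT at 0 h, the median over the 69 genes then being 0.07 or about 0 in place of -0.24. The rdm4 arrays at 0 h also had the higher root marker levels given above, whose part in these differences was not tested.

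At 3 h the order was opposite for the same steady genes of the petL unit. Among the 69, 8 genes were higher in rdm4 than in WT and 1 lower, against 17.6% and 19.1% of all probe sets. psaJ was higher in rdm4 by 0.47 ± 0.10 (adjusted p = 0.00339), and psaC was lower, at -0.36 ± 0.07 (adjusted p = 0.00122). Both calls held with each array left out, and with the labels exchanged every difference has the opposite sign. The other 7 higher genes, rps18, rpl33, petB, rpl36, psbE, psbL and psbH, had differences of 0.24 to 0.42. Their calls were each lost without at least 1 of the 3 h arrays, and the count of 9 dropped to 4 and 3 without replicate 1 and 2 of rdm4 and to 5 and 3 without replicate 1 and 2 of WT.

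At 48 h few plastid genes were called different between the genotypes. Of the 69, 4 were higher in rdm4 than in WT and 2 lower, against 16% and 19% of all probe sets. The 4 higher genes, ndhD, ndhG, ndhI and psaC, stand in the ndhH unit. ndhD had levels of 8.41 and 8.80 in rdm4 and 8.14 and 8.09 in WT, a difference of 0.49 ± 0.12 (adjusted p = 0.00785), and ndhG had 6.40 and 5.88 in rdm4 and 5.59 and 5.13 in WT, a difference of 0.78 ± 0.22. ndhI differed by 0.27 ± 0.07 and psaC by 0.19 ± 0.07, while psbA and rps18 were lower in rdm4, at -0.56 ± 0.17 and -0.24 ± 0.08. The levels of these 6 did not overlap between the genotypes, but with 2 arrays each this held for 10 of the 69 genes all higher and 5 all lower in rdm4, below the 31.8% and 34.5% of all probe sets. Each of the 6 calls was lost with some array left out, that of ndhD without replicate 2 of rdm4 at 48 h, where the difference was 0.29. The count changed to 12, with 9 lower and 3 higher in rdm4, without replicate 1 of rdm4 at 48 h.

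The difference between the 48 h responses, rdm4 minus WT, was called for 5 genes, all positive, against 9.47% of all probe sets called higher and 12.7% called lower. ndhD was at 0.82 ± 0.17 (adjusted p = 0.00448), having fallen by 1.04 ± 0.12 in WT and standing at -0.22 ± 0.12 in rdm4. That call held with each array left out. The others, ndhG, psbF, psbL and psaC, were at 1.06, 0.38, 0.35 and 0.34. The count of 5 dropped to 1 without replicate 2 of WT at 48 h or replicate 2 of rdm4 at 0 h, and to 2 without replicate 2 of rdm4 at 48 h. The rpoB, rps16 and petN responses at 48 h did not differ by a called amount between the genotypes, with rdm4 minus WT at -0.11 ± 0.58 for rpoB, -0.73 ± 0.71 for rps16 and 0.34 ± 0.29 for petN, and SEs of this size do not show that they were alike.

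**Figure D5:**
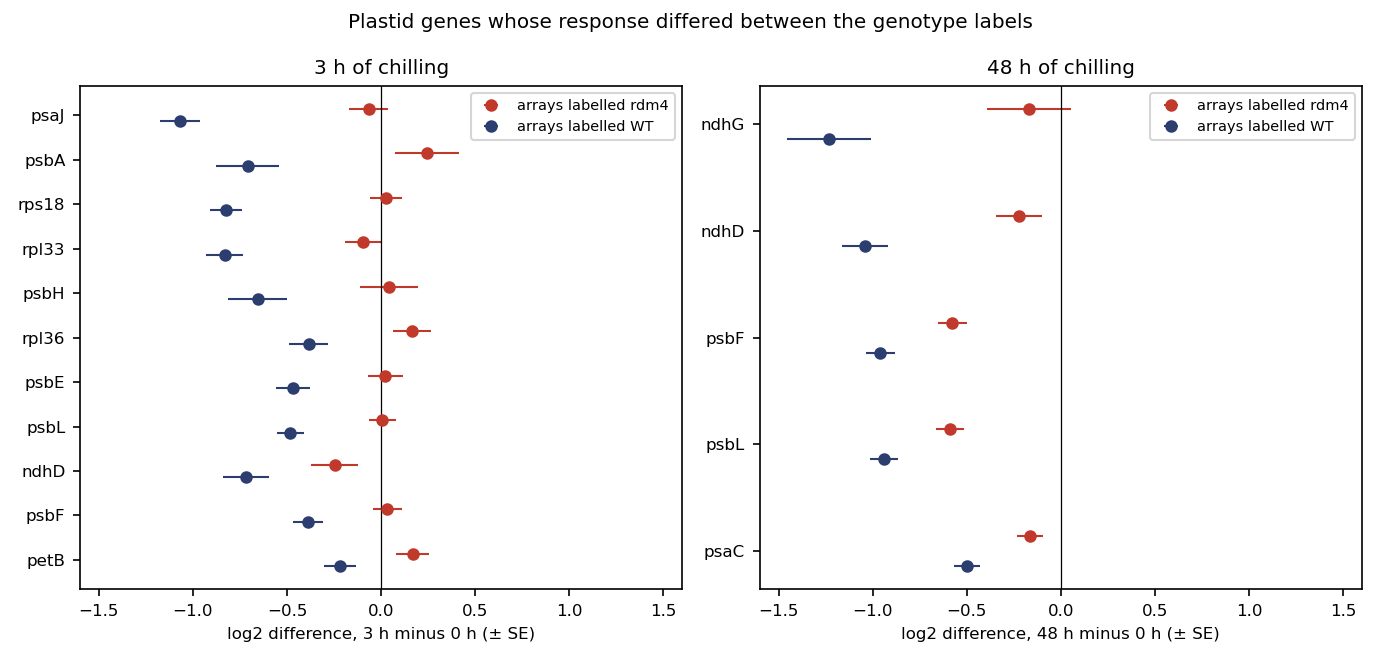
Log2 difference from 0 h with its SE (horizontal axes) in rdm4 (red) and WT (blue) of the plastid genes (vertical axes) whose response was called different between the genotypes, 11 at 3 h (left) and 5 at 48 h (right). At 3 h the WT points lie between -1.07 and -0.22 and the rdm4 points between -0.25 and 0.24; at 48 h the rdm4 points are less negative than the WT points. The genotypes at 3 h are as labelled.

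Nuclear genes for subunits of the same complexes were measured for 7 named members of the lists, which hold 30 genes. All 7 had fallen by 48 h, averaged over the genotypes, against 30.3% of all probe sets called lower. The NDH subunit genes NdhL and NdhN fell by 0.93 ± 0.05 and 0.66 ± 0.04, the photosystem I genes PSAN and PSAE-1 by 0.50 ± 0.05 and 0.38 ± 0.05, and the photosystem II genes PSBW and PSBY by 0.38 ± 0.05 and 0.32 ± 0.04. ATPC1, for the gamma subunit of the ATP synthase, fell by 0.25 ± 0.04. At 3 h 2 of the 7 had fallen, against 23.5% of all probe sets. These were NdhN, by 0.67 ± 0.04, and NdhL, by 0.42 ± 0.05. At 48 h NdhL was also higher in rdm4 than in WT, with levels of 11.01 and 11.06 in rdm4 and 10.63 and 10.72 in WT, a difference of 0.37 ± 0.07 (adjusted p = 0.00189). Averaged over the genotypes, the 3 leaf markers named, which encode a light-harvesting protein (LHCB4.1, LHCB4.2) and Rubisco activase (RCA), had fallen by then too. The 5 root markers had risen in this mean, against 27.4% of all probe sets called higher. In WT all 5 were called higher, with a median of 1.01, while in rdm4 2 were higher, 2 lower and 1 not called. Of the leaf markers, 3 were called lower in WT and 2 in rdm4. The part of these markers in the plastid values was not tested. Of 2 loci listed with the nuclear polymerases of plastids, AT5G15700, which the annotation used leaves unnamed, was measured and rose by 1.10 ± 0.06. Of the 15 mitochondrial genes, the other organelle's, 1 was called lower and 1 higher at 48 h, against 30.3% and 27.4% of all probe sets.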

How the data were processed

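Leaf RNA was hybridised to 12 ATH1 arrays, 2 per genotype and time. The authors deposited log2 values per probe set, a scale found from their range. The method of summarising and normalising them, and how the RNA was primed for labelling, are not given in the sources used here. Array medians were 6.33 to 6.43. The 64 control probe sets were left out of the tests. Names came from the platform annotation and RefSeq. The fit was limma 3.58.1 in R 4.3.3, a 6-group-means model of all 12 arrays (6 residual and 5.97 prior degrees of freedom), with Benjamini-Hochberg adjustment over 22746 probe sets within each of 11 comparisons and a call at an adjusted p under 0.05. The script was tested on simulated data. The number of arrays limits the precision. The background percentages are shares of all probe sets with the same call.

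Members and lists were chosen with earlier results of these data known. The rule for naming takes psbA, psbD, psaA, psaC, psbE, rbcL, ndhD, rpoA, rpoB, rpl33, accD and clpP, and per complex and comparison up to 3 called members in each direction and 2 not called; others were named after their values were seen, to account for each member. No listed nuclear sigma factor, polymerase-associated, RNA-stability or small Rubisco subunit gene was named on the array. Alternatives were quantile normalization, median centring, a filter on the dimmest 30% of probe sets, a trended robust fit, the compared arrays alone, a replicate block, each array left out and, added after seeing the data, the genotype labels of the 3 h arrays exchanged.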

Additional observations from a re-analysis of the deposited data

Results flagged for a closer look

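The genotypes' responses to chilling differed by the direct test in 16 gene and time combinations, given here as rdm4 minus WT on the log2 scale. At 3 h psaJ differed by 1.00, psbA by 0.95, rps18 by 0.85, rpl33 by 0.74, psbH by 0.70, rpl36 by 0.55, psbE by 0.49, psbL by 0.49, ndhD by 0.47, psbF by 0.42 and petB by 0.39. These values rest on the genotype labels of the 3 h arrays, where the 25S ribosomal RNA control has the genotypes in the opposite order to the other times. With those labels exchanged, none of the 11 was called, and they stood at 0.05 for psaJ, 0.39 for psbA, 0.15 for rps18, 0.06 for rpl33, 0.20 for ndhD, 0.04 for psbF and 0.01 for psbL, and at -0.14 for psbH, -0.05 for rpl36, -0.05 for psbE and -0.28 for petB. With the labels as given, the calls of psbH, ndhD and petB were lost with single arrays left out. At 48 h ndhG differed by 1.06, ndhD by 0.82, psbF by 0.38, psbL by 0.35 and psaC by 0.34, and with single arrays left out only the ndhD call was never lost.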

How the results depend on the processing

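No called difference of a plastid gene changed sign under any alternative run with the labels as given. Of 144 calls over the 11 comparisons, 81 were kept under all of these. Leaving out single arrays ended 240 of 1728 calls tried, the trended robust fit 32 of 144, median centring 13, the compared arrays alone 12, quantile normalization 7, the replicate block 2 and the filter on dim probe sets none of the 143 it kept. The count of plastid genes called changed by over 1.5 times in 2 comparisons when no array was left out. With the trended robust fit the 48 h responses differed in 8 genes in place of 5, and in a fit of the 3 h arrays alone 14 genes differed between rdm4 and WT in place of 9, 4 of them lower and 10 higher. The causes were not tested. The 48 h mean gave 29 calls without the 3 h arrays, 26 lower and 3 higher.

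With each array left out in turn, the number of genes called ranged from 24 to 46 for the mean at 48 h and from 8 to 16 for that at 3 h. It was 13 to 29 in rdm4 and 21 to 29 in WT at 48 h, and 1 to 4 in rdm4 and 10 to 16 in WT at 3 h. Between rdm4 and WT it was 3 to 8 at 0 h, 3 to 9 at 3 h and 4 to 12 at 48 h. The responses differed in 1 to 7 genes at 48 h and in 8 to 13 at 3 h. Replicate numbers were shared between groups, and the replicates came from different growth chambers. Over all probe sets the replicate differences correlated above 0.1 in only 4 of 15 pairs of groups. The pairs with WT at 0 h were all negative (-0.15 to -0.03) and the others all positive (0.01 to 0.27). Values this weak do not settle whether replicates are paired, and the part of the chambers was not tested. Over the 69 plastid genes alone the correlations ran from -0.90 to 0.94 and were above 0.1 in 10 of 15 pairs, those with WT at 0 h being negative. With the replicate block the mean at 48 h had 34 calls. The 35 widely spread genes had an SE of 0.21 to 0.39 in the mean at 48 h, beside a median difference of -0.38 over the members. The dimmest genes were ndhF, petD and rps14.

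Exchanging the genotype labels of the 3 h arrays was added after seeing the data. It gave 1 call in place of 11 for the difference of the 3 h responses, 6 in place of 3 in rdm4 and 7 in place of 15 in WT at 3 h. The difference of responses reversed for petB at -0.28, psbH at -0.14, psbE at -0.048 and rpl36 at -0.048, and psaC in rdm4 stood at 0.0031. Between rdm4 and WT at 3 h all 9 calls reversed, by construction, to -0.47 for psaJ, -0.42 for psbH, -0.35 for rps18, -0.34 for rpl33, -0.33 for petB, -0.30 for rpl36, -0.27 for psbE, -0.24 for psbL and 0.36 for psaC.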

Other observations

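The plastid probe sets that match 2 gene entries were set beside the others without a count. In the mean of both genotypes at 48 h, rpl23 and rpl2, for ribosomal proteins, were lower by the adjusted p, at -0.46 ± 0.07 (adjusted p = 9.77e-05) and -0.26 ± 0.06 (adjusted p = 0.00313), and so was ycf1, at -0.81 (adjusted p = 0.0475). ycf2 was at 0.09, ndhB, of the NDH complex, at -0.09, rps7 at -0.41, and the 2 probe sets of rps12 at -0.53 and -0.52, and none of these was called.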
